A study of Mus musculus with 21 samples.

Results

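The genes described here are 9 components and regulators of the complement system, C1qa, C1qb, C1qc, C3, C4b, Cd55, Cd59a, Serping1 and Clu. They were chosen by name and were found by matching Ensembl identifiers to gene symbols, which located 9 of 9 among the 35598 genes of each deposited table. Expression was measured in glomeruli, the filtering tufts of the kidney, cut by laser from frozen mouse kidney sections and sequenced from the 3' ends of polyadenylated RNA (QuantSeq FWD). The study asked what deletion of Epac1 in podocytes, the epithelial cells that wrap the glomerular capillaries, does in glomerulonephritis. All 21 mice were female, 3 months old and homozygous for floxed Epac1. The cKO mice also carried a Cre recombinase driven by a podocyte promoter, which deletes Epac1 (gene symbol Rapgef3) in podocytes and not in the other glomerular cells, and their Epac1fl/fl littermates without Cre are called flox. Nephritis was passive: decomplemented nephrotoxic serum (NTS) was injected intravenously on 2 consecutive days, and kidneys were taken on day 4 or on day 11. Control mice received PBS. There were 3 cKO and 3 flox mice with PBS, 4 cKO and 3 flox mice at day 4, and 4 cKO and 4 flox mice at day 11, with 1 library per mouse.

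Complement is a cascade of plasma and tissue proteins that is set off on immune complexes, microbes and damaged cells. In the classical pathway the C1q molecule, built from 3 kinds of chain, binds antibody and sets off cleavage of C4 and then of C3, and regulators on cell surfaces and in plasma hold the cascade back. Antibody bound in the glomerulus is a known trigger of this pathway in kidney disease, tissue macrophages are a known source of C1q, and liver is the main source of most plasma components.

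Library totals ran from 4550550 reads in cKO day 11 replicate 3 to 24295712 in flox day 4 replicate 1. The number of genes with a read ran from 7871 in cKO day 4 replicate 3 to 13006. Of the reads, 14.93% to 39.52% fell on 1 ribosomal RNA gene, CT010467.1, with the highest share in cKO day 11 replicate 4. Rapgef3, the targeted gene, had a read in every library, at 141 ± 44.8 CPM (reads of a gene scaled to the library's size) in 11 cKO libraries and 220 ± 78.4 CPM in 10 flox libraries (SD). The cKO libraries ranged between 63.2 and 199.03 CPM and the flox libraries between 124 and 346 CPM, so the genotypes overlapped (log2 fold change -0.68 ± 0.25 SE averaged over stages, edgeR adjusted p = 0.55). The 7 podocyte markers summed to 5951 ± 834 CPM with PBS, 5025 ± 928 CPM at day 4 and 3910 ± 887 CPM at day 11. The 9 proximal tubule markers summed to 7230 ± 1192 CPM with PBS, 8497 ± 3202 CPM at day 4 and 5322 ± 2166 CPM at day 11, so the cut material held RNA of tubule genes as well as of glomerular cells. Gpx3, at 1561 to 9322 CPM over the 21 libraries, was the largest part of the tubule sum in each. Library cKO day 4 replicate 3 had 0 reads for 5 of the 9 complement genes, and cKO day 11 replicate 3, the shallowest, had 0 reads for 2. In these 2 libraries 3 reads, used here as the limit that a count of 0 allows, correspond to 0.231 and 0.672 CPM. In bulk samples, fewer cells of a type and less RNA per cell cannot be told apart.

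C1qa, C1qb and C1qc encode the 3 chains of C1q, the recognition molecule of the classical pathway. They lie side by side on the minus strand of mouse chromosome 4 (GRCm38), C1qb at 136880129 to 136886187, C1qc at 136889804 to 136893065 and C1qa at 136895917 to 136898803, with 3616 bases between C1qb and C1qc and 2851 bases between C1qc and C1qa. The start regions of C1qb and C1qc are shown because these neighbours code for parts of 1 molecule and can be read side by side. Each runs from 250 bases before to 50 bases after a start site, 5′ to 3′ on the minus strand, as the RefSeq table gives it for GRCm38.p6 (C1qb, chr4:136886151-136886450, and C1qc, chr4:136892865-136893164). Capitals mark matches to GAGGAA, a PU box of the kind the myeloid factor PU.1 is known to bind, on either strand.
C1qb: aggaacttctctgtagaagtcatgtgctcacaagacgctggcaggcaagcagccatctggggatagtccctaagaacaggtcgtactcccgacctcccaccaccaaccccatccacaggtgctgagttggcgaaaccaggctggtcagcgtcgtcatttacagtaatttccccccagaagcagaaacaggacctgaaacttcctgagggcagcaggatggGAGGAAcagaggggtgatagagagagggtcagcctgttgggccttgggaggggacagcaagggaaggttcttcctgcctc
C1qc: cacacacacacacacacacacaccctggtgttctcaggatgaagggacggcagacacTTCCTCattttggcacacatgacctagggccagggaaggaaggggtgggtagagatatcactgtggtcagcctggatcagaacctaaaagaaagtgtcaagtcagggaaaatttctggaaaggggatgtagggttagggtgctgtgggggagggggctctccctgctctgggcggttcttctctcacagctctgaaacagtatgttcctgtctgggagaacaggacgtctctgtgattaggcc
The PU box began 30 bases before the RefSeq start site in C1qb and 193 bases before it in C1qc, where the match is on the opposite strand. The GENCODE gene given above for C1qc starts farther upstream, so the RefSeq start site (136892914) lies 151 bases inside it, and measured from the GENCODE starts the PU box began 43 bases ahead in C1qb and 42 bases ahead in C1qc. Of 32851 start regions of the same length, 28.3% held the PU box on either strand. The letters TATAAA, found in 13.6% of them, were in neither window. RefSeq start regions were matched for 5 of the 9 genes (C1qb, C1qc, C3, Cd55 and Cd59a). Of the 5, the PU box was also in that of Cd59a, which is no C1q gene, and TATAAA was in that of C3 alone, after its start.

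The C1q chains were scattered between mice of the same group. C1qb had 0.208, 4.49 and 0.134 CPM in the cKO PBS mice (4, 92 and 3 reads) and 138, 13.1 and 7.44 CPM in the flox PBS mice. At day 4 C1qb had 28.5, 97.4, 0 and 119 CPM in the cKO mice and 38.7, 30.6 and 33.8 CPM in the flox mice. At day 11 it had 26.4, 89.2, 0 and 52.2 CPM in the cKO mice and 42.7, 29.6, 41.0 and 28.2 CPM in the flox mice. All 3 cKO PBS mice lay under all 3 flox PBS mice, and the share of all genes that separate in this way was not computed. After NTS, 6 of the 8 cKO mice lay over every cKO PBS mouse, and the share of all genes with such a count was not computed either. The other 2, both with 0 reads, were day 11 replicate 3, the shallowest library, and day 4 replicate 3, the one with the fewest genes. The shallowest library had 165 reads of C1qa, and the part of library depth in the C1qb zeros was not tested. The flox mice with NTS lay between their PBS mice.

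For C1qa, the cKO PBS mice had 3.28, 46.2 and 15.02 CPM and the flox PBS mice 61.9, 131 and 15.7 CPM. At day 4 C1qa had 81.3, 160, 0 and 115 CPM in the cKO mice and 20.3, 56.0 and 19.0 CPM in the flox mice. At day 11 it had 33.2, 36.2, 36.8 and 59.1 CPM in the cKO mice and 50.4, 39.2, 173 and 0.045 CPM, the last being 1 read, in the flox mice. The groups overlapped at every stage.
C1qc had 0, 16.2 and 10.1 CPM in the cKO PBS mice and 0.84, 4.74 and 0 CPM in the flox PBS mice. At day 4 C1qc had 27.4, 24.3, 0.23 and 2.09 CPM in the cKO mice and 131, 2.02 and 39.4 CPM in the flox mice. At day 11 it had 17.5, 19.8, 1.79 and 11.6 CPM in the cKO mice and 0.714, 11.0, 5.40 and 0.938 CPM in the flox mice. Its highest library was flox day 4 replicate 1, and the mice of that group spread from 2.02 to 131 CPM.

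**Figure D1:**
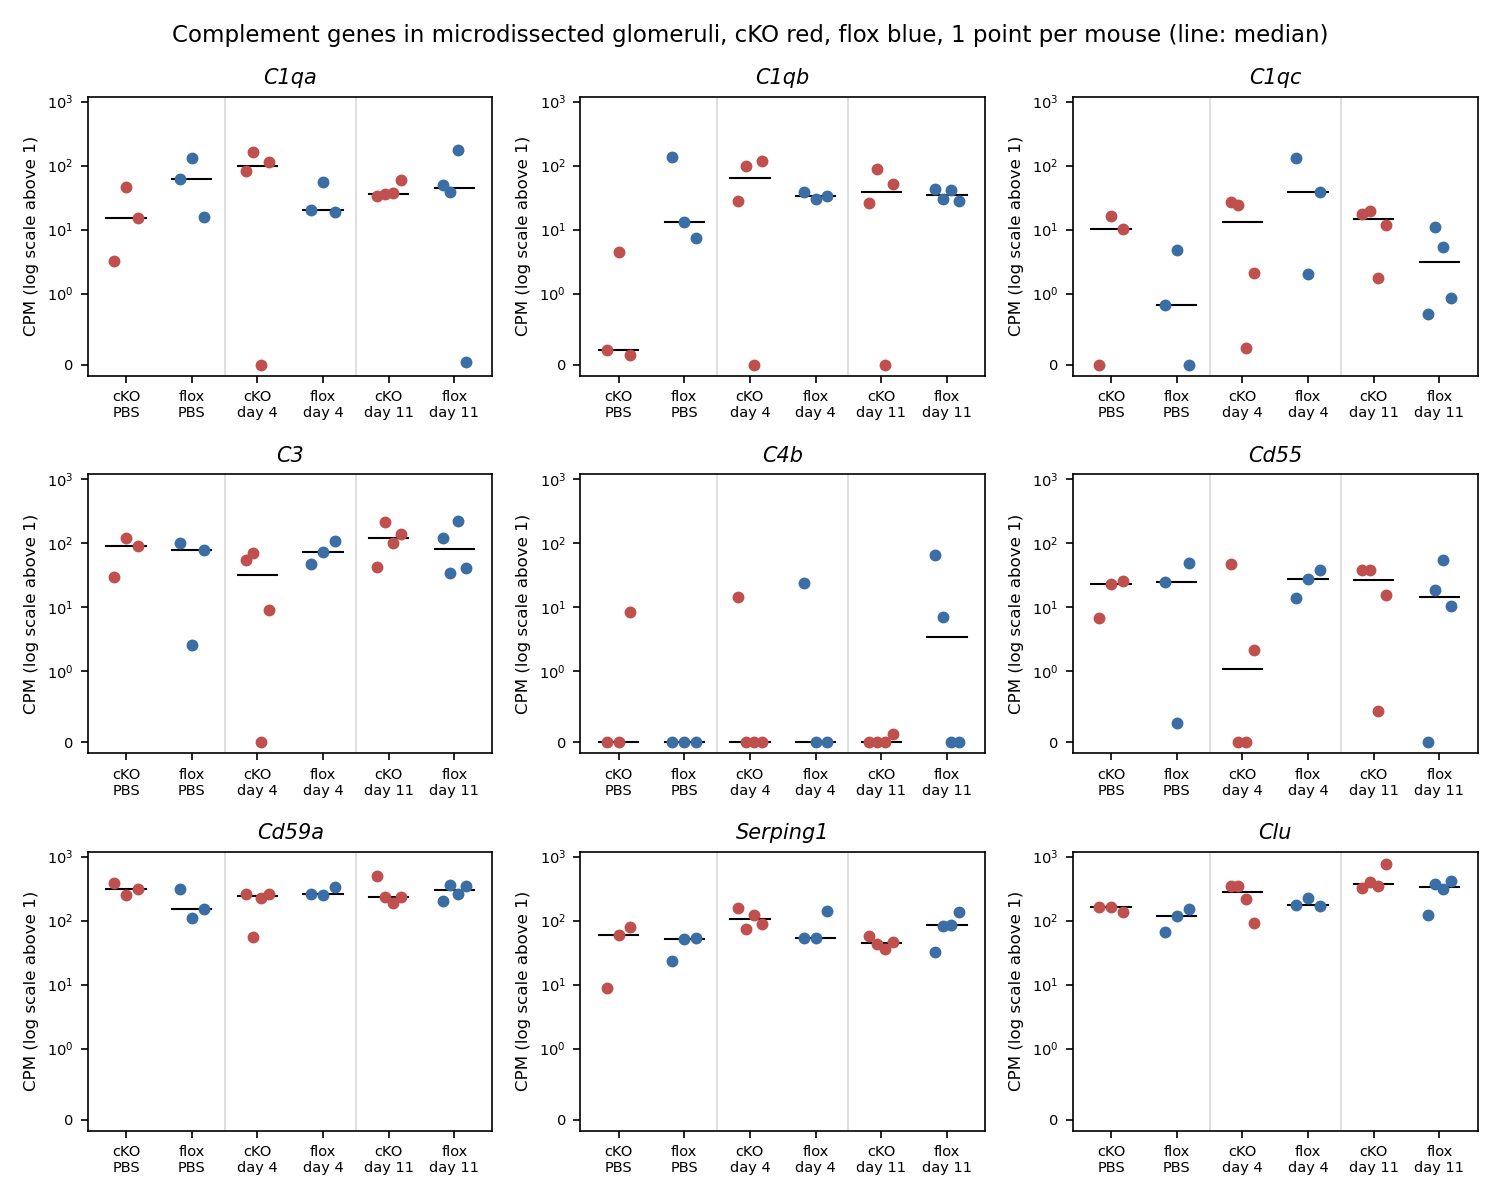
CPM (logarithmic above 1, linear below) of the 9 complement genes, 1 point per mouse, with cKO in red, flox in blue and the group median as a line. Clu, Cd59a and Serping1 were read in every mouse, while C4b was at 0 in 15 of 21 mice and the C1q chains spread from 0 to over 100 CPM.

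Averaged over both genotypes, 0 of the 3 chains were called (edgeR adjusted p under 0.05) at either stage, where 0.0216% of all 13898 genes tested were called at day 4 and 0.122% at day 11. At day 4 against PBS, C1qb had a log2 fold change of 2.31 ± 1.21 SE (95% interval -0.17 to 4.78, edgeR adjusted p = 0.581). C1qc had 2.79 ± 1.68 (adjusted p = 0.685) and C1qa 0.46 ± 1.005 (adjusted p = 1). At day 11 against the same PBS mice C1qb had 2.06 ± 1.18 (-0.35 to 4.46, edgeR adjusted p = 0.661), C1qc 0.91 ± 1.52 and C1qa 0.43 ± 0.97 (adjusted p = 1 each). All 3 estimates were above 0 at both stages, and each interval reached below 0. Of all genes tested, 50.5% were above 0 at day 4 and 52.9% at day 11. Without cKO PBS replicate 2 the C1qb values were 3.91 at day 4 and 3.66 at day 11, and without flox PBS replicate 1 they were 3.48 and 3.24. For C1qa at day 11 the estimate was -0.14 without flox day 11 replicate 3, the mouse with 173 CPM. By genotype, all 3 chains were above 0 in cKO mice at both stages. In flox mice 1 (C1qc) was above 0 and 2 (C1qa and C1qb) were below it at both stages. The shares of all genes above 0 were 45.4% at day 4 and 47.5% at day 11 in cKO mice. In flox mice they were 52.4% and 53.2%.

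The genotype comparisons of C1qb turned on the PBS mice. With PBS, C1qb averaged 1.61 ± 2.49 CPM in cKO mice and 53.0 ± 74.0 CPM in flox mice (SD, n = 3 each), a log2 fold change of -5.04 ± 1.98 SE (-9.06 to -1.005, edgeR adjusted p = 0.726). This was the only one of the 9 genes with an unadjusted p under 0.05 (0.016) between genotypes with PBS, where 0% of 13898 genes passed after adjustment and 6.02% had an unadjusted p under 0.05. DESeq2 called it (adjusted p = 0.0186), together with C4b, and called 7.17% of 13040 genes in that comparison. Without flox PBS replicate 1 the C1qb log2 fold change was -2.68, and without cKO PBS replicate 2 it was -8.23. Within cKO mice, C1qb had a log2 fold change of 5.24 ± 1.97 at day 4 against PBS (edgeR adjusted p = 0.598), and without cKO PBS replicate 2 that value was 8.45. At day 11 the cKO value was 4.70 ± 1.91 (edgeR adjusted p = 0.805), and without that library it was 7.90. Both cKO comparisons were called by DESeq2 (adjusted p = 0.00742 and 0.0287). In flox mice C1qb had log2 fold changes of -0.63 ± 1.67 at day 4 and -0.58 ± 1.55 at day 11 (edgeR adjusted p = 1 each). The test of the difference between genotypes in the response gave 5.87 ± 2.50 at day 4 (edgeR adjusted p = 0.565) and 5.28 ± 2.35 at day 11 (edgeR adjusted p = 0.676), both against the same PBS mice. Without flox PBS replicate 1 these were 3.52 and 2.92, and without cKO PBS replicate 2 they were 9.08 and 8.47.

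C3 and C4b are the components cleaved as the cascade proceeds, C4 by the protease complex on C1q and C3 by the convertase that forms from it. C3 (chromosome 17, 57203970 to 57228136, minus strand) averaged 80.4 ± 46.1 CPM in cKO and 60.2 ± 50.8 CPM in flox mice with PBS. At day 4 it averaged 33.6 ± 34.5 CPM in cKO and 76.5 ± 30.3 CPM in flox mice, and at day 11 122 ± 70.2 CPM in cKO and 104 ± 87.2 CPM in flox mice, the 2 highest group means. Single mice ranged from 34.3 to 222 CPM at day 11 and from 2.59 to 120 CPM with PBS. Of the 8 day 11 mice 3 lay above every PBS mouse, and the share of all genes with such a count was not computed. Against PBS, C3 had a log2 fold change of 0.70 ± 0.82 SE at day 11 (-0.997 to 2.39) and of -0.46 ± 0.84 at day 4 (edgeR adjusted p = 1 each). C3 overlaps the microRNA gene Mir6978 on the same strand.

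C4b (chromosome 17, 34728380 to 34743882, minus strand) was a gene of few libraries. It had 0 reads in 15 of 21 mice and 66.1 and 6.94 CPM in flox day 11 replicates 1 and 2, 24.0 CPM in flox day 4 replicate 1, 14.4 CPM in cKO day 4 replicate 1, 8.40 CPM in cKO PBS replicate 3 and 1 read in cKO day 11 replicate 4. No other mouse had a read, and all 3 flox PBS mice were at 0. Its near-identical neighbour C4a can take or lose reads, since the handling of shared reads is not given in the sources used here, and C4a had reads in 4 libraries. Against flox PBS, whose 3 libraries had 0 reads, the mean of the flox mice was at least 7.20 higher on the log2 scale at day 4 and at least 8.39 at day 11, where the floor is 3 reads over the PBS group and covers counting error only. The test gave edgeR adjusted p = 0.592 and 0.579, and a DESeq2 adjusted p of 3.6e-05 and 2.07e-06. Averaged over genotypes, C4b had an edgeR adjusted p of 0.569 at day 4 and 0.986 at day 11. Between genotypes at day 11 it had an edgeR adjusted p of 0.839, and the test of the difference between genotypes in the response at day 11 gave an edgeR adjusted p of 0.614, which was not called, and a DESeq2 adjusted p of 5.22e-05. Groups with reads in 1 or 2 mice set these values.

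Cd55, Cd59a, Serping1 and Clu encode regulators: Cd55 speeds the decay of the C3 convertases, Cd59a stops the pore of the terminal pathway, Serping1 encodes the C1 inhibitor, and clusterin, the product of Clu, binds terminal complexes and misfolded proteins. Clu (chromosome 14, 65968483 to 65981547, plus strand) was the only one of the 9 genes called in any of the 13 comparisons by edgeR, and it rose at day 11. The cKO PBS mice had 163, 164 and 137 CPM and the flox PBS mice 66.5, 120 and 152 CPM. At day 4 Clu had 347, 342, 221 and 91.3 CPM in the cKO mice and 176.9, 223 and 166 CPM in the flox mice. At day 11 it had 317, 402, 346 and 765 CPM in the cKO mice and 122, 367, 315 and 423 CPM in the flox mice. The day 11 mice lay above all 6 PBS mice in 7 of 8 cases, the exception being flox day 11 replicate 1. All 4 cKO mice at day 11 lay above all 3 cKO PBS mice. The shares of all genes with such separations were not computed, so these counts add no support to the call.

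Clu averaged 382 ± 180 CPM at day 11 and 134 ± 36.9 CPM with PBS (SD, n = 8 and n = 6 mice), a fold of 2.84 averaged over genotypes (log2 1.50 ± 0.32 SE, 95% interval 0.86 to 2.15, edgeR adjusted p = 0.0346). Of the 13898 genes tested in this comparison 0.122% were called, 16 upward and 1 downward, and 9.12% had an unadjusted p under 0.05, as had 1 of the 9 (Clu). DESeq2 called 2 of the 9 (C4b and Clu) and 8.93% of all genes. Without 1 of 10 libraries in turn Clu's adjusted p no longer passed 0.05. It was 0.131 without flox PBS replicate 1, 0.0843 without flox PBS replicate 2, 0.124, 0.104 and 0.131 without cKO PBS replicates 1, 2 and 3, 0.0727, 0.0534 and 0.114 without flox day 11 replicates 2, 3 and 4, and 0.0633 and 0.142 without cKO day 11 replicates 2 and 4. The log2 fold change stayed between 1.33 and 1.64 over all 21 such fits. The 2 genotypes gave log2 fold changes of 1.57 ± 0.45 in cKO and 1.44 ± 0.45 in flox mice (edgeR adjusted p = 0.65 and 0.579), and the difference between them was 0.13 ± 0.60 (-1.10 to 1.36, edgeR adjusted p = 1).

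At day 4 against PBS, Clu averaged 224 ± 93.4 CPM in the NTS mice and 134 ± 36.9 CPM in the PBS mice, a log2 fold change of 0.72 ± 0.32 (0.08 to 1.36, edgeR adjusted p = 0.471). In that comparison 0 of the 9 genes and 0.0216% of all genes were called by edgeR, 1 gene of the 9 (Clu) had an unadjusted p under 0.05, as had 9.28% of all genes. DESeq2 called 1 of the 9 (C4b) and 9.63% of all genes. Day 11 stood 0.79 ± 0.29 above day 4 (0.18 to 1.39, edgeR adjusted p = 0.382), a comparison where 0% of genes were called by edgeR and 8.57% had an unadjusted p under 0.05, Clu among them. Averaged over stages, Clu had a log2 fold change of 0.48 ± 0.25 in cKO against flox mice (-0.02 to 0.99, edgeR adjusted p = 0.802). Of all genes 0.0072% were called there and 6.62% had an unadjusted p under 0.05, as had 0 of the 9.

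**Figure D2:**
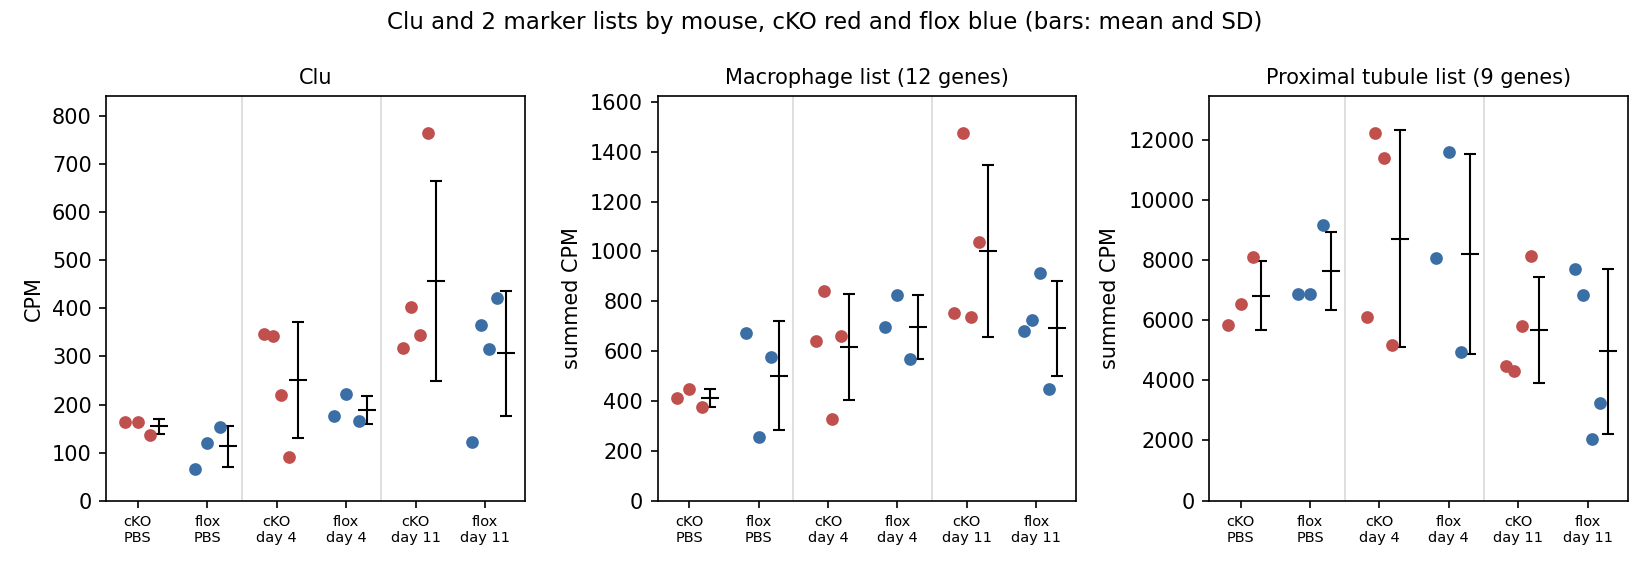
Clu and the summed CPM of 12 macrophage and 9 proximal tubule markers, 1 point per mouse, with cKO in red, flox in blue and the group mean and SD in black. Clu and the macrophage sum were highest on average in cKO mice at day 11, at 458 and 1000.0 CPM. Single mice there reached 765 CPM for Clu (replicate 4) and 1474 CPM for the macrophage sum (replicate 2). The tubule sum, of which Gpx3 was the largest part in each library, was lowest on average in flox mice at day 11, at 4963 CPM.

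Summed levels of several marker lists differed on average between stages beside Clu, and 2 of their genes, Thsd7a and Spp1, were called at day 11 against PBS. The 12 macrophage genes summed to 456 ± 149 CPM with PBS, 651 ± 173 CPM at day 4 and 846 ± 307 CPM at day 11. Of the 12, 8 had a fold change above 0 at day 11 and 4 below it, 0 were called by edgeR and 4 had an unadjusted p under 0.05, with the smallest for Lgals3 (3.37 ± 0.80, edgeR adjusted p = 0.0971). Of all genes 52.9% were above 0 in this comparison, 0.122% were called and 9.12% had an unadjusted p under 0.05. Adgre1 was at 0 in 17 of the 21 libraries, Aif1 in 13 and Cd68 in 10, while Csf1r, Lyz2, Ctss, Cd74 and Lgals3 were read in every one. Over the 21 libraries, the log2 CPM of Clu and the mean log2 CPM of the macrophage genes correlated at Pearson r = 0.518, as a description over libraries that share groups and depth. The same correlation was 0.516 for Cd55, and for the C1q chains it was 0.243 (C1qa), 0.122 (C1qb) and 0.375 (C1qc). The 7 podocyte genes were all below 0 at day 11, and 1 of them, Thsd7a, fell (log2 fold change -1.80 ± 0.20, edgeR adjusted p = 6.85e-06). The 6 distal nephron genes summed to 759 ± 342 CPM at day 11 and 1637 ± 455 CPM with PBS, with 5 of 6 below 0, 4 of them at an unadjusted p under 0.05, and 0 called. The 6 parietal epithelial genes summed to 116 ± 70.5 CPM at day 11 and 53.0 ± 34.7 CPM with PBS, with 6 of 6 above 0, 1 of them at an unadjusted p under 0.05, and 0 called. The proximal tubule list had 2 of 9 genes above 0 at day 11 and 0 called. With the proximal tubule mean as a covariate, the Clu log2 fold change was 1.58 (edgeR adjusted p = 0.0444). The tubule sum itself differed between stages, so this fit cannot separate tubule content from stage. The acute injury list (Lcn2, Havcr1, Spp1 and Krt20) summed to 368 ± 148 CPM at day 11 and 66.6 ± 18.9 CPM with PBS. Spp1 made up nearly all of the PBS sum, since Havcr1 and Krt20 had no read there and Lcn2 was at most 0.055 CPM. Spp1 itself rose (log2 fold change 2.28 ± 0.33, edgeR adjusted p = 0.000266). Of the remaining lists, the neutrophil genes summed to 37.15 ± 35.39 CPM with PBS and 23.15 ± 25.9 CPM at day 11. Lymphocyte genes summed to 10.58 ± 10.7 and 2.34 ± 4.33 CPM, and mesangial genes to 2799 ± 611 and 3610 ± 1641 CPM. Glomerular endothelial genes summed to 5498 ± 1062 and 4368 ± 1028 CPM, and interferon-induced genes to 492.9 ± 74.1 and 483.1 ± 122.2 CPM. In each of these lists 0 genes were called at day 11. The part of any of the marker lists in the Clu result was not tested. Among 2090 well-read genes (average log2 CPM 6 or more), those whose pattern was most like Clu were Col3a1 (r = 0.742), Col1a2 (r = 0.738) and Spp1 (r = 0.727) over the 21 libraries.

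Serping1 (chromosome 2, 84765387 to 84775444, minus strand) averaged 49.4 ± 36.3 CPM in cKO and 42.9 ± 16.96 CPM in flox mice with PBS. At day 4 it averaged 111 ± 38.6 CPM in cKO and 82.2 ± 49.6 CPM in flox mice, and at day 11 46.0 ± 9.34 CPM in cKO and 84.7 ± 43.5 CPM in flox mice. At day 4 the cKO mice ranged from 73.7 to 160 CPM, against 8.96 to 79.3 CPM with PBS, so 1 of the 4 fell within the PBS range. The share of all genes with such a count was not computed. Against PBS its log2 fold change was 1.05 ± 0.55 at day 4 (-0.07 to 2.17, edgeR adjusted p = 0.581) and 0.44 ± 0.53 at day 11 (edgeR adjusted p = 1). The most alike genes were Rpl19 (r = 0.753), H2-K1 (r = 0.73) and Actg1 (r = 0.707).

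Cd59a (chromosome 2, 104095801 to 104115354, plus strand) was read at 55.0 to 490.0 CPM in every library. It averaged 316 ± 65.0 CPM in cKO and 191 ± 104 CPM in flox mice with PBS, 198 ± 96.8 CPM in cKO and 280 ± 46.0 CPM in flox mice at day 4, and 286 ± 138 CPM in cKO and 294 ± 74.0 CPM in flox mice at day 11. Its log2 fold change against PBS was -0.06 ± 0.31 at day 4 and 0.24 ± 0.30 at day 11 (edgeR adjusted p = 1 each), with 95% intervals of -0.70 to 0.58 and -0.38 to 0.86. The sign of the day 4 value turned with voom weights, with the tubule covariate and without flox PBS replicate 1, cKO PBS replicate 1 or cKO day 4 replicate 2. At day 4 the cKO mice lay 0.50 ± 0.43 below the flox mice on the log2 scale (edgeR adjusted p = 1), and Cd59a had the smallest p of the 9 genes in that comparison, where 0 of the 9 had an unadjusted p under 0.05. Cd59b, its near copy, had reads in 20 libraries.

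Cd55 (chromosome 1, 130439027 to 130462744, minus strand) averaged 18.4 ± 10.3 CPM in cKO and 24.5 ± 24.2 CPM in flox mice with PBS. It averaged 12.2 ± 22.9 CPM in cKO and 26.3 ± 11.8 CPM in flox mice at day 4, and 23.0 ± 18.3 CPM in cKO and 20.6 ± 23.4 CPM in flox mice at day 11. It had no read in 3 libraries, cKO day 4 replicates 2 and 3 and flox day 11 replicate 1. Its log2 fold change against PBS was -0.25 ± 1.53 at day 4 (-3.37 to 2.87) and 0.04 ± 1.48 at day 11 (-2.98 to 3.06, edgeR adjusted p = 1 each), and the sign turned without flox PBS replicate 3 at day 4 and without any 1 of 5 libraries at day 11. Over the 21 libraries its log2 CPM correlated at r = 0.748 with the number of genes with a read, the highest of the 9 genes. Cd55b, its near copy, had reads in 1 library, flox day 4 replicate 1 (0.359 CPM), and reads of the 2 genes may be split. Cd55 overlaps Gm16083 on the opposite strand, and the strand setting of the counting is not given in the sources used here.

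**Figure D3:**
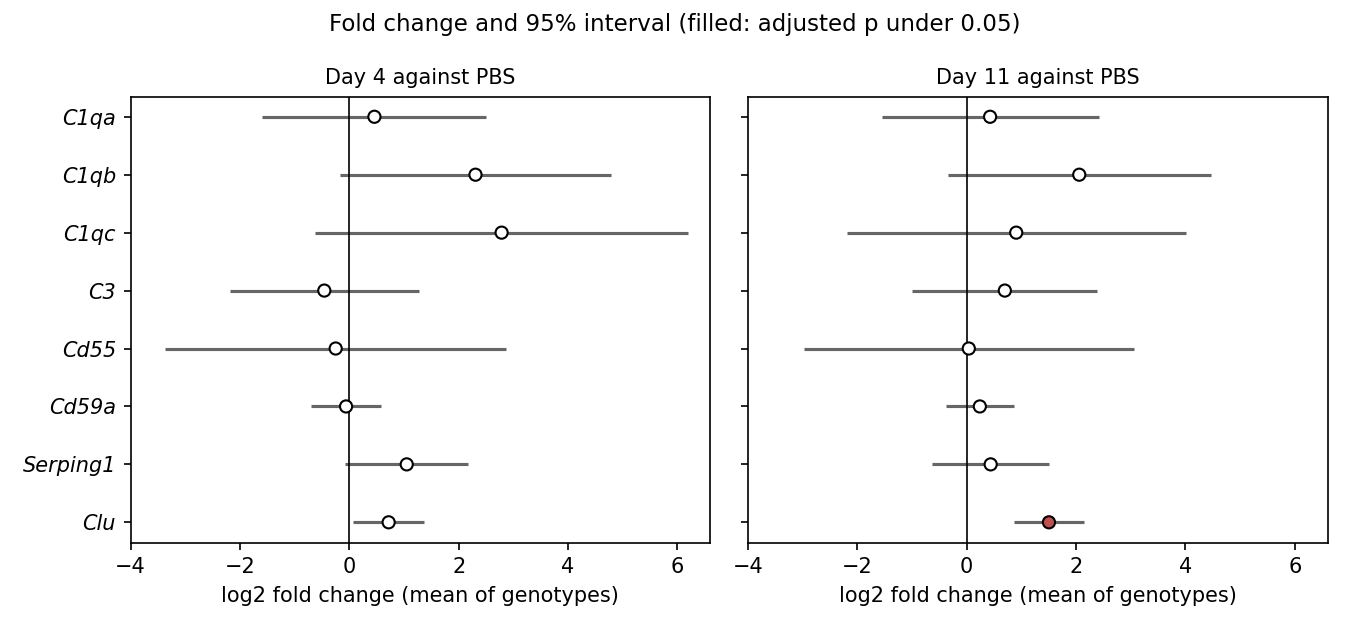
Log2 fold change against PBS averaged over genotypes, with its 95% interval, for 8 of the 9 genes at day 4 (left) and day 11 (right). C4b is left out because all flox PBS mice had 0 reads, and the filled point is Clu at day 11, 1.50 with an interval of 0.86 to 2.15, the only called value.

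The 8 genes other than C4b had a median log2 fold change of 0.59 at day 4 and of 0.57 at day 11, with 5 and 8 of the 8 above 0. All genes tested had medians of 0.01 and 0.07, with 50.5% and 52.9% above 0. These day 4 and day 11 comparisons share the PBS mice.

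The genes differed in their spread within groups. The pooled standard deviation of log2 CPM within groups was 0.65 for Clu, 0.66 for Cd59a and 0.87 for Serping1. It was 2.35 for C3 and between 2.71 and 3.33 for C1qa, C1qb, C1qc, C4b and Cd55. Among genes of like level, C1qa stood at percentile 97.8 of that spread, C4b at 93.1 and C3 at 91.6, and C1qc at 20.1.

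Pairs of the 9 genes were weakly alike across the 21 libraries. The 36 Pearson correlations of log2 CPM had a median of 0.133, from -0.312 (C1qa and Cd59a) to 0.601 (Cd55 and Cd59a). The C1q chains correlated at 0.502 (C1qa and C1qb), 0.437 (C1qa and C1qc) and 0.401 (C1qb and C1qc). Without cKO day 4 replicate 3, in which 2 of the chains had no read, these were 0.296, 0.332 and 0.307. C1qa was most like Naa35 (r = 0.77), C1qb most like Kdelr1 (r = 0.771) and C1qc most like Mrfap1 (r = 0.742). C3 was most like Lgals9 (r = 0.897) and C4b most like Pebp1 (r = 0.674). Cd55 was most like H2afz (r = 0.77) and Cd59a most like Cggbp1 (r = 0.809). In the same order, the Spearman correlations of these pairs were 0.461, 0.826, 0.763, 0.529, 0.638, 0.655 and 0.596. These pairs were not computed without cKO day 4 replicate 3, in which C1qa and C3 had no read.

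**Figure D4:**
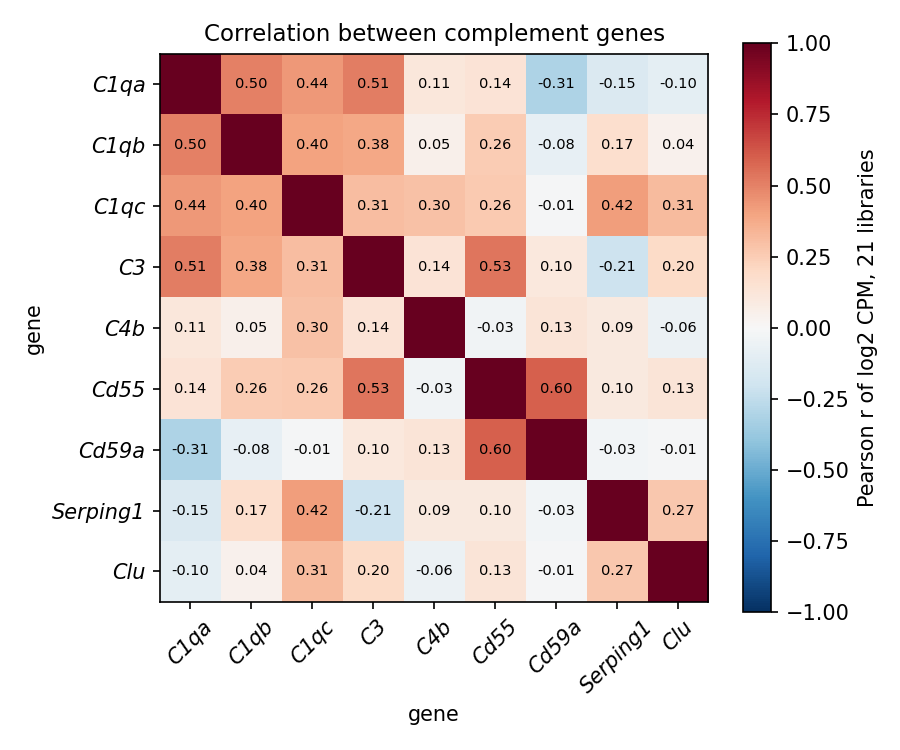
Pearson correlation of log2 CPM between the 9 complement genes over 21 libraries. The highest pair was Cd55 and Cd59a at 0.601, and the C1q chains stood between 0.401 and 0.502.

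Of 45 other genes on 4 complement pathway lists, 28 had enough reads to test, and 8 had no read in any library. In each of the 13 comparisons 0 of the 28 were called. Among components of the classical and lectin pathways, 5 of 6 tested genes were above 0 at day 11 against PBS, and C4a had the smallest p (edgeR adjusted p = 1). Of the alternative and terminal pathway genes 2 of 5 were above 0, and Cfp, which encodes properdin, the stabiliser of the alternative convertase, had the smallest p (0.00427, edgeR adjusted p = 0.339), at 11.6 ± 16.5 CPM with NTS at day 11 and 0 CPM in all PBS mice. Of the further regulators 5 of 9 were above 0, with the smallest p for Csmd1 (0.00477, edgeR adjusted p = 0.339), at 0.00525 ± 0.0149 CPM at day 11 and 6.22 ± 9.74 CPM with PBS. Of the receptors and binding proteins, 7 of 8 were above 0 and 4 had an unadjusted p under 0.05. The smallest was for Itgam, a chain of complement receptor 3 (0.0135, edgeR adjusted p = 0.356). Itgam was at 6.29 ± 11.7 CPM at day 11 and 0 CPM in all PBS mice. All 28 had a median log2 fold change of 0.54, with 19 above 0 and 8 at an unadjusted p under 0.05. Over all genes tested in that comparison the median was 0.07, with 52.9% above 0, 9.12% at an unadjusted p under 0.05 and 0.122% called.

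In the remaining comparisons 0 of the 9 genes were called by edgeR. With an unadjusted p under 0.05 there was 1 (C1qb) in cKO mice at day 4, 1 (C4b) in flox mice at day 4, 2 (C1qb and Clu) in cKO mice at day 11 and 2 (C4b and Clu) in flox mice at day 11, against backgrounds of 8.16%, 7.93%, 6.02% and 8.25% of all genes. The share of all genes called after adjustment was 0% in each of these comparisons except cKO at day 11, where it was 0.0504%. Between genotypes 0 genes of the 9 at day 4 and 1 (C4b) at day 11 had an unadjusted p under 0.05, against 7.42% and 5.86% of all genes. In the interactions it was 1 (C1qb) at day 4 and 2 (C1qb and C4b) at day 11, against 7.74% and 6.94%. DESeq2 called 1 gene (C1qb) in cKO mice at day 4, 1 (C4b) in flox mice at day 4, 2 (C1qb and Clu) in cKO mice at day 11 and 2 (C4b and Clu) in flox mice at day 11, where it called 6.08%, 8.63%, 4.91% and 8.71% of all genes. In the interactions it called 1 (C4b) at each stage, with 8.54% of all genes at day 4 and 7.29% at day 11.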

How the data were processed

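Glomerular RNA of 21 mice was sequenced as 1 library per mouse. The authors deposited, per the file headers, an estimated count for each gene of each library, with no normalization. The submitters' processing notes name the mm10 build and the tools DRAGEN, fastp, FastQC and Picard, and no version of any. How strand, duplicate reads, molecular identifiers and shared reads were handled, and which annotation was used, is not stated there. Whole numbers within 0.005 made up 95.17% of the values above 0. GENCODE M21 gave a symbol to 35513 of the 35598 identifiers.

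The estimated counts were rounded and fitted with edgeR 4.0.16 (R 4.3.3). Genes were kept by filterByExpr at a minimum of 10 reads, scaled by TMM and tested by the robust quasi-likelihood method in 1 model of 6 group means. That left 13898 genes and 15 residual degrees of freedom. A gene counted as called when its Benjamini-Hochberg adjusted p, over every gene in the model, was under 0.05. The p-values reflect the spread between mice. CPM values use TMM-adjusted library sizes, and log2 CPM a prior count of 2. Standard errors are the log2 fold change over the square root of F. Alternatives were DESeq2 1.42.0, voom with quality weights (limma 3.58.1), median-ratio scaling, no filter, 10 reads in 10 libraries, fits on the compared groups only, a replicate block, a tubule covariate and each library left out. Fits without cKO day 4 replicate 3 and cKO day 11 replicate 3 together, and without CT010467.1, were added after the data were seen.

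Every member is given with its values at day 4 and day 11 against PBS, and in other comparisons those with an unadjusted p under 0.05 or, with none, the 1 with the smallest p. The members, the pathway lists and the marker lists were chosen with earlier results of these data known. Floors of 3 reads cover counting error only. Plots were made in Python 3.11.15 (matplotlib 3.10.9).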

Additional observations from a re-analysis of the deposited data

Results flagged for a closer look

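In 27 sets of 4 mice (9 genes in 3 groups), 7 held a mouse far from the other 3, judged by its gap to the nearest of them as a share of the whole range. Chance flags about 1 in 20 such sets where values are normally distributed. These CPM values are skewed and hold many zeros, and with 3 mice at 0 any read in the other mouse is enough, so the 7 cannot be set against that rate. C1qa was 59.1 CPM in cKO day 11 replicate 4, with the other 3 mice between 33.2 and 36.8 CPM. C4b was 14.4 CPM in cKO day 4 replicate 1 and 0.116 CPM, which is 1 read, in cKO day 11 replicate 4, with 0 in the other mice of each group. C4b was 66.1 CPM in flox day 11 replicate 1, with the others between 0 and 6.94 CPM. Cd55 was 46.4 CPM in cKO day 4 replicate 1, with the others between 0 and 2.18 CPM. Cd59a was 55.0 CPM in cKO day 4 replicate 2, with the others between 224 and 259 CPM, and 490.0 CPM in cKO day 11 replicate 1, with the others between 185 and 235 CPM.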

How the results depend on the processing

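With DESeq2, 1 of the 9 genes was called at day 4 and 2 at day 11 against PBS averaged over genotypes, 1 in cKO and 1 in flox mice at day 4, 2 in cKO and 2 in flox mice at day 11, 2 between genotypes with PBS, and 1 in the interaction at day 4 and at day 11. By edgeR the count was 1 at day 11 averaged over genotypes and 0 in the others, and the cause of the difference was not tested. Leaving out 1 library in turn, the day 11 count ran from 0 to 1.

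No pairing of mice by replicate number showed over all genes. The 48 same-numbered pairs of libraries had correlations of their deviations from group means between -0.051 and 0.03, and 0 were over 0.1. The 135 different-numbered pairs had -0.054 to 0.058, and the median was -0.001 for both kinds. Values this near 0 in both kinds cannot exclude a pairing that is weak or acts on few genes. With the replicate block, 0 of the 9 genes were called at day 11 (Clu 1.38, edgeR adjusted p = 0.237), and the C4b adjusted p at day 4, where the sign turned, was 1.

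The other signs that turned were those of small changes. Cd59a at day 4 was 0.034 with voom and 0.10 with the tubule covariate, and -0.20 to 0.21 with a library left out. Cd55 at day 4 was -2.27 to 0.24 with a library left out. C1qa at day 11 was -0.59 with voom and -0.14 to 1.03 with a library left out. Cd55 at day 11 was -0.62 with voom, -0.080 with the tubule covariate and -0.51 to 0.53 with a library left out. Clu at day 11 was called with DESeq2, voom, median-ratio scaling, both other filters and the tubule covariate. Libraries with 0 reads limit C4b, Cd55 and the C1q chains.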
